A study of Homo sapiens with 10 samples.

Results

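The genes described here encode the machinery of glycolysis and the response to low oxygen, measured in cyclophosphamide-resistant and cyclophosphamide-sensitive cells of chronic myeloid leukaemia (CML), a myeloid leukaemia driven by the BCR-ABL fusion kinase. They were taken by symbol from a list of 36 genes for glucose transporters, glycolytic enzymes, enzymes that act on pyruvate, oxygen sensing factors and genes that low oxygen induces. Every probe set that the platform annotation assigns to 1 symbol of this list was included. These were 52 of the 12625 probe sets on the array, and they stood for 34 genes, 24 with 1 tested probe set and 10 with several. Of the 52, 46 were among the 12558 probe sets tested, and 6 were control probe sets for GAPDH. HK1 and EGLN1 were not analysed here.

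The study set a cyclophosphamide-resistant subline (5 arrays) against the CML cell line it is compared with, called sensitive in the labels (5 arrays). Cyclophosphamide is an alkylating drug whose active products crosslink DNA. Total RNA from cells in culture medium was labelled with biotin and hybridised in 1 colour, 1 sample per array. The labels give neither the name of the line, nor how resistance was raised, nor the oxygen supply or cell density at harvest, and nothing says that the 5 samples of a group were separate cultures. Every difference below is therefore between 1 subline and 1 line. A p-value weighs it only against the scatter among these arrays, and the technical share of that scatter is not known.

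Arrays of both groups were of like quality. Above the negative control limit, the 95th percentile of 32 control probe sets with no human target on the same array, lay 51.0% to 61.3% of probe sets on resistant arrays and 52.7% to 59.1% on sensitive arrays (two-sided exact permutation p = 0.905). Of 7 measured blood markers, PTPRC, the leukocyte phosphatase CD45, and LYL1, a blood transcription factor, were above the limit on all 10 arrays, and CD34, a progenitor marker, on 4 resistant and 5 sensitive arrays. CD38, a surface enzyme of blood cells, was above it on 5 resistant and 0 sensitive arrays and called higher (limma adjusted p = 9.3e-05). SPI1, a myeloid transcription factor, was above it on 0 resistant and 5 sensitive arrays and not called, MPO, a granule enzyme, on 2 and 1, and KIT, a progenitor receptor, on none. Of other cell types, the markers that exceeded the limit on 3 or more arrays numbered 1 (resistant) and 2 (sensitive) of 7 for T cells, 1 and 1 of 5 for B cells, 0 and 1 of 4 for fibroblasts and 1 and 2 of 6 for epithelia. Among them CD3E was above it on 3 resistant and 3 sensitive arrays, CD22 on 3 and 2, and KRT8 on all 10. LUM, the matrix protein lumican, was above it on 0 resistant and 5 sensitive arrays and called lower (limma adjusted p = 0.00317). Above it on no array were CD3D and CD3G (T cells), BLK, CD79B and MS4A1 (B cells), COL1A2 and COL3A1 (fibroblasts) and EPCAM, KRT5, KRT18 and KRT19 (epithelia). Granule and maturation genes of the granulocytic lineage differed between the lines: all 8 listed markers were called lower in resistant cells. Their summed signal was 1117 to 2414 on resistant arrays and 183056 to 470530 on sensitive arrays. Of 6 measured erythroid markers 3 were called higher, with summed signals of 26530 to 37445 (resistant) and 8508 to 16658 (sensitive). The part of this shift between blood lineages in the results below was not tested. Sensitive arrays also differed among themselves in some of these markers. EPX was 40734 and 38859 on sensitive arrays 4 and 5, against 3585 to 4885 on sensitive arrays 1 to 3. CLC was 41628 and 107507 against 3590 to 3860, and GATA1 was 3800 and 3650 against 431 to 968. Other markers, such as AZU1 and PRTN3, did not divide the sensitive arrays in this way. The cause was not tested.

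Glycolysis splits glucose into pyruvate in a chain of cytosolic enzymes and yields ATP without oxygen. Lactate dehydrogenase then turns pyruvate into lactate, while the pyruvate dehydrogenase complex feeds it to mitochondria unless pyruvate dehydrogenase kinases switch that complex off. When oxygen is scarce, the alpha subunits HIF1A and EPAS1 escape hydroxylation by EGLN enzymes and destruction through VHL, pair with ARNT and induce most glycolytic genes together with genes such as BNIP3, P4HA1 and PDK1. Control of the alpha subunits is largely at the level of protein, which an array does not measure.

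Most of these genes did not pass the test, and those that did differed in direction. ENO2, ENO3 and P4HA2 were higher in resistant cells, and BNIP3, P4HA1, PGK1, PDK1 and GPI were lower. Of the 46 tested probe sets, 3 were called higher and 5 lower at an adjusted p under 0.05 in limma, and 38 were not called. In RNA from whole cultures, fewer cells with a transcript and less of it per cell cannot be told apart. Over all 12558 probe sets the share called was 7.41%, made up of 4.42% called higher and 2.99% called lower. By the brightest probe set of each gene, 3 of 34 genes were called higher and 4 lower, where 4.94% and 3.46% of all 8226 genes were. The median log2 difference, resistant minus sensitive on the log2(signal + 114.8) scale, was -0.27 over the 34 genes and 0.03 over all genes. The added 114.8 shrinks the differences of dim probe sets. Without any 1 array, 3 or 4 of the 46 probe sets were called higher. The count of lower calls was 5 also without sensitive array 3 or 4, but 2 or 3 without any 1 of the other 8 arrays. Without sensitive array 4 the 5 were not all the same probe sets, since PDK1 was then not called.

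**Figure D1:**
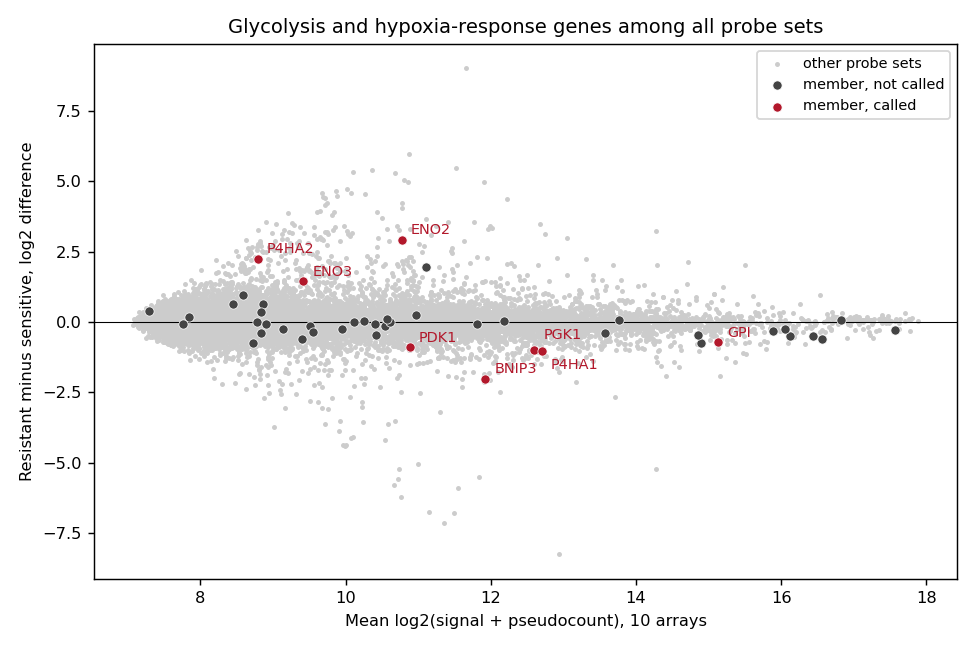
Mean log2(signal + 114.8) over 10 arrays on the horizontal axis against the resistant minus sensitive log2 difference on the vertical axis, 1 point per probe set (grey, other probe sets; black, the 38 probe sets of these genes that were not called; red, the 8 called ones). Points on the right, where glycolytic enzymes lie, are mostly a little below 0, and the called probe sets spread from BNIP3 at -2.01 to ENO2 at 2.92.

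Over the 46 probe sets, the 5 resistant arrays lay all above the 5 sensitive ones in 4 and all below them in 9, where the shares over all 12558 probe sets were 4.94% and 3.56%. The brightest members leaned towards lower signals in resistant cells. A mean signal over 20000, a bound chosen after the values were seen, was reached by 10 members, all of them glycolytic enzymes or lactate dehydrogenase subunits. Of these, 9 had a negative difference, LDHB being the exception, and the median was -0.47, against -0.02 for all 495 probe sets that bright. In 5 of the 10 the groups lay apart downwards, where 9.70% of the 495 did. Leaving out any 1 array kept 9 of the 10 negative, with medians from -0.53 to -0.40. With arrays scaled to a common median the 10 had a median of -0.61, all negative, against -0.16 for the 495, and after quantile normalisation -0.37, with 9 negative, against 0.03.

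**Figure D2:**
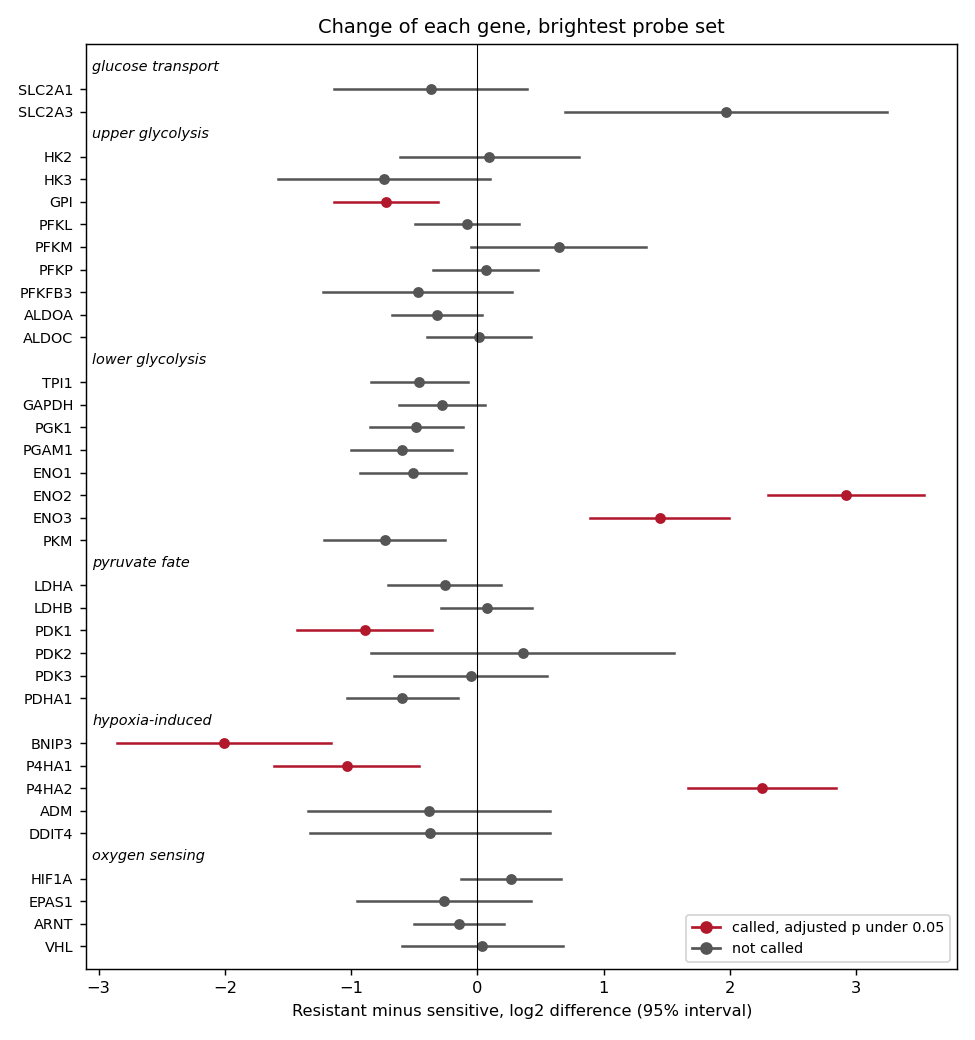
Resistant minus sensitive log2 difference (point) with its 95% interval (bar) for the brightest probe set of each of the 34 genes, grouped by role (red, adjusted p under 0.05 in limma). Among called genes, intervals of ENO2, ENO3 and P4HA2 lie above 0, and those of BNIP3, P4HA1, PDK1 and GPI below it. The intervals are not adjusted for the number of tests. Without a call, that of SLC2A3 also lies above 0, and those of TPI1, PGK1, PGAM1, ENO1, PKM and PDHA1 lie below it. PGK1 is drawn for the brighter of its 2 probe sets, which was not called.

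Neither glucose transporter was called. SLC2A3, a high-affinity glucose transporter, had signals of 3609, 3742.5, 7118, 2743 and 5318 on resistant arrays 1 to 5, against 2338.5, 1012, 97.6, 1102 and 2353 on sensitive arrays 1 to 5. All resistant arrays lay above all sensitive ones, but sensitive array 3 was far below the other sensitive arrays, and the log2 difference of 1.97 (SE 0.58) had an adjusted p of 0.0681 in limma. It passed the threshold without sensitive array 3 (adjusted p = 0.0356) or without sensitive array 5 (adjusted p = 0.0458). SLC2A3 was singled out after its values were seen. SLC2A1, the widespread basal transporter and a classic target of hypoxia-inducible factors, had 608, 249, 619.9, 919.9 and 503 on resistant arrays and 907, 1109, 535, 1155 and 314 on sensitive arrays. These values overlapped widely, and the difference of -0.37 had a 95% interval of -1.13 to 0.39 (limma adjusted p = 0.671). SLC2A1 was above the negative control limit on only 3 resistant and 3 sensitive arrays, so its signals carry little precision on size.

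In the upper part of glycolysis, down to the aldolases, GPI was called and the other 8 genes were not. GPI, the isomerase that turns glucose 6-phosphate into fructose 6-phosphate, had signals of 30949, 27046, 25156, 29404 and 27137 on resistant arrays 1 to 5, against 60230.4, 46183, 35715, 38517 and 53931 on sensitive arrays 1 to 5. Every resistant array was lower than every sensitive one, and the resistant values were close together while the sensitive ones were not. The log2 difference was -0.72 (SE 0.19, limma adjusted p = 0.0373), a call lost without any 1 array except sensitive array 3 or 4, at adjusted p-values of 0.0571 to 0.0943. HK2, an inducible hexokinase that commits glucose to the cell, had 1435, 2286, 2085, 998 and 947 on resistant arrays and 1884, 1146.5, 669, 1638 and 1913 on sensitive arrays. The groups overlapped, with a difference of 0.09 and a 95% interval of -0.62 to 0.80 (limma adjusted p = 0.932). The aldolase ALDOA, which splits the 6-carbon sugar, lay apart downwards but was not called, at 54558 ± 4172 in resistant and 68354 ± 9221 in sensitive cells (SD, n = 5 each, log2 difference -0.32, limma adjusted p = 0.348).

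The phosphofructokinase subunits, which form the committed step of glycolysis, did not pass the test. PFKL had a log2 difference of -0.08, PFKP of 0.07 and PFKM of 0.64, with limma adjusted p-values of 0.888, 0.915 and 0.323. PFKM was above the limit on only 2 resistant arrays and 1 sensitive array. PFKFB3, whose product makes the activator of that step, had differences of -0.47, 0.05 and 0.63 in its 3 probe sets, and none was called. The probe set at 0.63 was above the limit on 1 resistant and 0 sensitive arrays, so its direction carries little weight. The others also differed in sign. HK3, a myeloid hexokinase, was above the limit on 0 resistant and 2 sensitive arrays (log2 difference -0.74, limma adjusted p = 0.354). ALDOC, another aldolase, differed by 0.01.

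The largest fitted log2 difference among these genes was that of an enolase, in the lower part of glycolysis. Enolases turn 2-phosphoglycerate into phosphoenolpyruvate. ENO2, the gamma enolase that is best known from neurons, had signals of 6779, 4647, 4383, 3550.1 and 4638 on resistant arrays 1 to 5, against 1075, 497, 309.5, 369 and 587 on sensitive arrays 1 to 5. The lowest resistant array was far above the highest sensitive one, and only 3 sensitive arrays were above the negative control limit. Means were 4799 ± 1194 in resistant and 567 ± 304 in sensitive cells (SD, n = 5 each), and the log2 difference was 2.92 (SE 0.28, limma adjusted p = 4.02e-05). ENO3, the beta enolase of muscle, had 1178, 819.5, 976, 1441 and 771 on resistant arrays and 553, 370.4, 212, 192 and 261.5 on sensitive arrays. All resistant arrays were again higher than all sensitive ones, of which 1 was above the limit, and the difference was 1.44 (SE 0.25, limma adjusted p = 0.00356). ENO1, the alpha enolase of most tissues, did not pass the test. Its signals were 81218, 74333, 70335.5, 78298 and 68769 on resistant arrays and 153769.8, 114795, 93544, 91266 and 89427 on sensitive arrays, apart downwards, and its difference was -0.51 (limma adjusted p = 0.16). Both the ENO2 and the ENO3 calls held without any 1 array.

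PGK1, the kinase that makes the first ATP of glycolysis and lies on chromosome X, was measured by a pair of probe sets that lay apart in the same direction. The dimmer one, 31488_s_at, whose suffix marks probes that related transcripts may share, had 4076, 3685, 4397, 5625 and 3836 on resistant arrays 1 to 5, against 10715, 7877, 6913, 8784 and 9414 on sensitive arrays 1 to 5. It was called lower, with a log2 difference of -0.997 (SE 0.19, limma adjusted p = 0.00569), and the call held without any 1 array. The brighter one, 37677_at, had 49993, 60784, 62177, 62295 and 68571 on resistant arrays and 100372, 85477, 71263, 88007 and 80662 on sensitive arrays. Here too every resistant array was lower, but the difference of -0.48 was not called (limma adjusted p = 0.125). With the mean of both probe sets as the gene's value, PGK1 was called at -0.74 (limma adjusted p = 0.0112).

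The other enzymes of this stretch were lower in resistant cells in sign and were not called. TPI1, which interconverts the 3-carbon sugars, had a log2 difference of -0.46, PGAM1, a phosphoglycerate mutase, of -0.60, and PKM, the pyruvate kinase, of -0.74 in its bright probe set. Their limma adjusted p-values were 0.176, 0.0754 and 0.0698. The other PKM probe set was above the limit on no array. GAPDH, which oxidises glyceraldehyde 3-phosphate and often serves as a loading control, had a difference of -0.28 in its bright probe set (limma adjusted p = 0.396). The other tested GAPDH probe set, 39482_at, was above the limit on 1 resistant and 2 sensitive arrays and differed by 0.02 (limma adjusted p = 0.972). The array carries 6 more GAPDH probe sets as controls. The 3 that read the GAPDH transcript differed in the same direction, by -0.32 at its 3' end, -0.25 in the middle and -0.27 at its 5' end, with two-sided exact permutation p-values of 0.00794, 0.0397 and 0.0159, or 0.0476, 0.0794 and 0.0477 adjusted over the 6. The other 3, marked as reading the opposite strand, had exact p-values of 0.19 to 0.595. The control at the 3' end was 135242 ± 14095 on resistant and 168875 ± 11065 on sensitive arrays, with no overlap (SD, n = 5 each). The 3' to 5' ratio of the controls, a sign of RNA quality, was 0.801 to 0.968 (resistant) and 0.833 to 0.921 (sensitive).

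**Figure D3:**
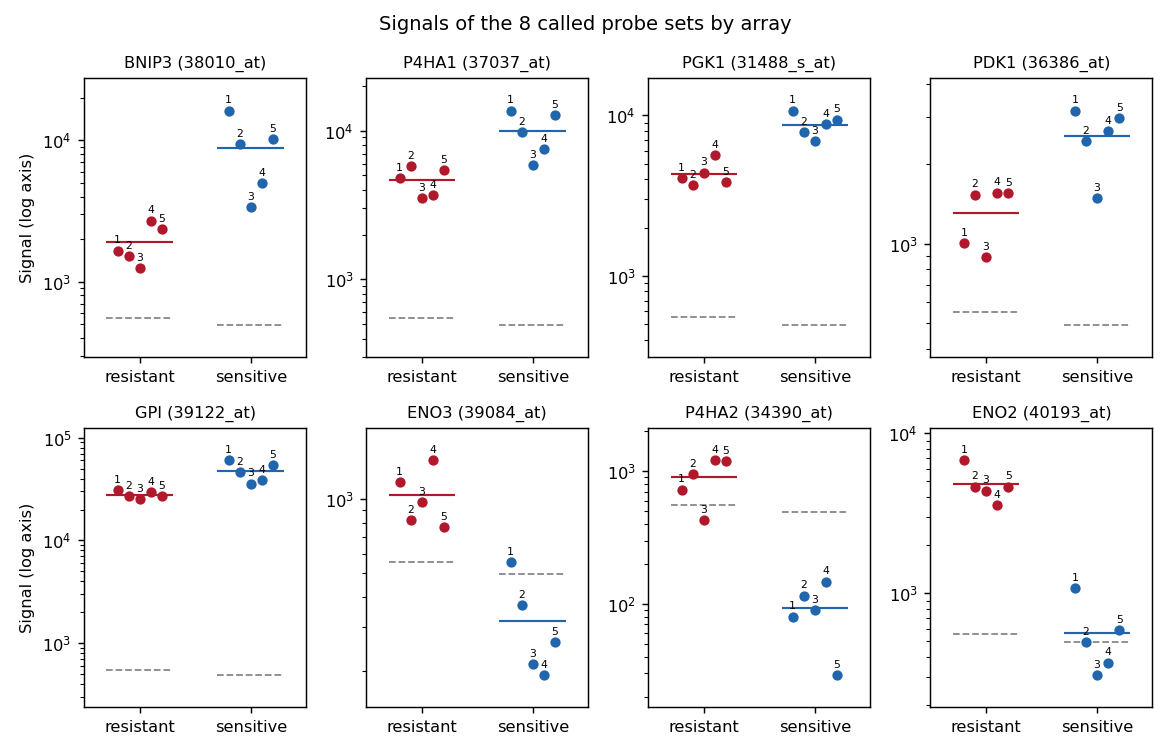
Signals of the 8 called probe sets on a log axis, 1 point per array, with the replicate number above it, the group mean as a line, and the group's mean negative control limit as a dashed line. Resistant and sensitive points do not overlap in 7 panels, while in PDK1 sensitive array 3 falls within the resistant range.

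Of the genes that set the fate of pyruvate, PDK1 was called and the other 5 were not. PDK1 is a kinase that inactivates pyruvate dehydrogenase and so keeps pyruvate out of mitochondria. It had signals of 1004, 1527, 889.8, 1553 and 1550.3 on resistant arrays 1 to 5, against 3165, 2435, 1479.8, 2640.4 and 2975 on sensitive arrays 1 to 5. Sensitive array 3 lay below 3 of the resistant arrays, and the other sensitive arrays lay above all of them. The log2 difference was -0.89 (SE 0.25, limma adjusted p = 0.0478), and the call was lost without any 1 array except sensitive array 3, at adjusted p-values of 0.0582 to 0.12. LDHA, the lactate dehydrogenase subunit that hypoxia-inducible factors raise, had 62721, 71802, 50837, 60798.5 and 64729 on resistant arrays and 99714, 76863, 49999, 71573 and 80780.1 on sensitive arrays. The groups overlapped, since sensitive array 3 was the lowest of all 10, and the difference was -0.26 with a 95% interval of -0.71 to 0.19 (limma adjusted p = 0.592). LDHB, the subunit that favours the reverse reaction, differed by 0.07. PDHA1, a catalytic subunit of pyruvate dehydrogenase, lay apart downwards at -0.60 (limma adjusted p = 0.112). PDK2 had differences of 0.96 and 0.36 in 2 dim probe sets, and the 3 probe sets of PDK3 had differences between -0.14 and -0.01, with none called.

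Among 5 genes that low oxygen induces, 2 fell and 1 rose, where 3.46% of all genes by brightest probe set were called lower and 4.94% higher. BNIP3, a mitochondrial protein of the BCL2 family that starts mitophagy, had signals of 1660.2, 1521, 1247.5, 2701 and 2348 on resistant arrays 1 to 5, against 16237, 9396, 3362, 5009 and 10263 on sensitive arrays 1 to 5. Every resistant array was lower than every sensitive one, and the sensitive arrays were widely spread, with replicate 1 the highest and replicate 3 the lowest. Means were 1895 ± 606 in resistant and 8853 ± 5043 in sensitive cells (SD, n = 5 each), and the log2 difference was -2.01 (SE 0.39, limma adjusted p = 0.00673). The BNIP3 call held without any 1 array.

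P4HA1 and P4HA2 encode alternative catalytic subunits of collagen prolyl 4-hydroxylase, which hydroxylates proline in collagen chains, and they moved in opposite directions. P4HA1 had signals of 4816, 5765, 3501, 3666.5 and 5454 on resistant arrays 1 to 5, against 13638, 9786, 5872, 7494 and 12740.1 on sensitive arrays 1 to 5, apart downwards. Its log2 difference was -1.03 (SE 0.26, limma adjusted p = 0.032), and the call was lost without resistant array 1, 3 or 4 or sensitive array 1, 2 or 5, at adjusted p-values of 0.0606 to 0.0828. P4HA2 had 729, 957, 431, 1212 and 1189.9 on resistant arrays and 80.1, 115.5, 90.2, 147 and 29.2 on sensitive arrays. It was above the negative control limit on 4 resistant arrays and on 0 sensitive arrays, so its means of 904 ± 329 in resistant and 92.5 ± 43.9 in sensitive cells (SD, n = 5 each) give a bound only. It was at least 1.74-fold higher in resistant cells, set against the limit of each sensitive array, with a log2 difference of 2.25 (SE 0.27, limma adjusted p = 0.000202). That call held without any 1 array. ADM, the vasodilator peptide adrenomedullin, and DDIT4, an inhibitor of mTORC1, were not called. The bright DDIT4 probe set ranged from 5719 to 29721 on resistant arrays and from 6913 to 21959 on sensitive arrays, with resistant array 3 the highest of all.

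None of the 4 measured genes of oxygen sensing was called, with 0 also at an unadjusted p under 0.05 in limma. HIF1A, the alpha subunit of the hypoxia-inducible factor, had signals of 1933, 2243, 2466, 2106 and 1762 on resistant arrays 1 to 5, against 1340.3, 1846, 1507, 2017 and 1996 on sensitive arrays 1 to 5. These overlapped, with a log2 difference of 0.26 and a 95% interval of -0.13 to 0.66 (limma adjusted p = 0.522). ARNT, its partner, had differences of -0.15 and -0.26. VHL, the substrate receptor of the ubiquitin ligase that marks HIF1A, had a difference of 0.04 in its bright probe set, and its other probe set was above the limit on no array. EPAS1, the other alpha subunit, was dim, with 1 probe set on no array and the other above the limit on 1 resistant and 3 sensitive arrays.

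Hypoxia-inducible factors bind the core letters ACGTG or GCGTG, and promoters were searched for both, on both strands. The promoters of 5 members are printed from RefSeq on GRCh38.p14, 5' to 3' on the gene's strand, to set 3 genes with a called lower probe set beside 2 that were called higher, with P4HA1 and P4HA2 as a pair of subunits that changed in opposite directions. They were chosen after the values were seen. Each runs from 250 bases before the transcript start to 50 after it, and capitals mark ACGTG and its reverse complement CACGT.
BNIP3, lower in resistant cells, lies at chr10:131981874-131982173 on the minus strand.
BNIP3: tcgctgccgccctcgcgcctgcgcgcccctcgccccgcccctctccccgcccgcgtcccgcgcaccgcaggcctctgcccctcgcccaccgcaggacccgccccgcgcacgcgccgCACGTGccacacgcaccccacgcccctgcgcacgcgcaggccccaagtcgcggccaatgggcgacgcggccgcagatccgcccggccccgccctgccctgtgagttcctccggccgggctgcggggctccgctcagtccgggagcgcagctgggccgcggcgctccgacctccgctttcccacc
P4HA1, also lower, lies at chr10:73096817-73097116 on the minus strand.
P4HA1: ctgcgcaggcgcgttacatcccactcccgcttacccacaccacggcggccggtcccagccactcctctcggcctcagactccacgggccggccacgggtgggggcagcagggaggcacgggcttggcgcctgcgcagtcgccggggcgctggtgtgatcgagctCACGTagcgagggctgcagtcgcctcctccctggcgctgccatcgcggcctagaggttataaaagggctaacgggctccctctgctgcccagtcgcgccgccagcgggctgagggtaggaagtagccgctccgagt
PGK1, also lower, lies at chrX:78103998-78104297 on the plus strand.
PGK1: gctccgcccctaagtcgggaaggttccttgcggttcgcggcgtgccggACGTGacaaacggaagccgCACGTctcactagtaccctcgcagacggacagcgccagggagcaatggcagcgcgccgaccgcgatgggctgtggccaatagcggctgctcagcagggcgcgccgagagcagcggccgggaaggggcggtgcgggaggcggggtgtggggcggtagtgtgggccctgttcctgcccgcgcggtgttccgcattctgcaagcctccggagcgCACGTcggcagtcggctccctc
ENO2, higher in resistant cells, lies at chr12:6914330-6914629 on the plus strand.
ENO2: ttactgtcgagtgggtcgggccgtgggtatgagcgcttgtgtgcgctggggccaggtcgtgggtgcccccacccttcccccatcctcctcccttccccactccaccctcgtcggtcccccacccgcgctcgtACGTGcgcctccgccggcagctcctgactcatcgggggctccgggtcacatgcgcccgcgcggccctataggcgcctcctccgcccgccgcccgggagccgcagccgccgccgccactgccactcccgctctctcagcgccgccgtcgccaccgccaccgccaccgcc
P4HA2, also higher, lies at chr5:132227042-132227341 on the minus strand.
P4HA2: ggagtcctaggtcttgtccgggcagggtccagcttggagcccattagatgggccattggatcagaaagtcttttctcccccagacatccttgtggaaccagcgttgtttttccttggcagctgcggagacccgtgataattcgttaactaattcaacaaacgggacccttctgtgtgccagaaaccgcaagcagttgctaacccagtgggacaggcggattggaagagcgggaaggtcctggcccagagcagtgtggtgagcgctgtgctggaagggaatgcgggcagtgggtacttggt
BNIP3 has 2 matches that overlap in CACGTG, a palindrome that is also an E-box read by MYC and related factors, with first bases at -134 and -133. P4HA1 has 1 match at -86, PGK1 has 3 at -202, -183 and 29, ENO2 has 1 at -118, and the P4HA2 window holds no ACGTG or CACGT. Of the 52 promoters of these genes 42.3% hold ACGTG or CACGT, and of 35116 RefSeq promoters 21.4% do. Counted by gene, 18 of 32 (56.2%) have such a promoter, against 24.9% of 27305 genes. GCGTG or CACGC is found in 44.2% of these promoters and in 36.5% of all, or by gene in 65.6% of these and 40.6% of all. In the printed windows it has 4 matches in BNIP3, 1 in PGK1 and none in P4HA1, ENO2 and P4HA2. Such a match is a description of letters, not a bound site. The members were listed as genes of glycolysis and the low-oxygen response, so their higher shares describe the list, not a difference between lines. Of the called genes not printed, GPI has 1 match of ACGTG or CACGT, PDK1 has 2 in 1 promoter, and ENO3 has none. GCGTG or CACGC has 2 matches in 1 promoter of ENO3 and none in GPI and PDK1. ACGTG or CACGT was thus found in every gene with a lowered probe set, and among raised genes in ENO2 only. Whether matches differ by direction was not tested, and the called genes are few. SLC2A3 and VHL had no promoter entry in the table.

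Related genes were also set against each other within each array, as the change of the log2 ratio between the lines, for 10 pairs. The ratio of ENO2 to ENO1 was higher in resistant cells by 3.43 on the log2 scale, and that of P4HA2 to P4HA1 by 3.29. In both pairs all 5 resistant arrays lay above all 5 sensitive arrays, and each gave the smallest two-sided exact permutation p that 5 against 5 arrays allow, 0.00794, or 0.0397 adjusted over the 10 pairs. P4HA2 was dim in sensitive cells, and ENO2 was above the limit on only 3 sensitive arrays, so the sizes of both changes are uncertain. With a pseudocount at the 5th or the 40th percentile, the ENO2 ratio differed by 3.62 or 2.96 and the P4HA2 ratio by 3.96 or 2.36. The other 8 pairs did not pass. SLC2A1 to SLC2A3 fell short at -2.34 (exact p = 0.0238, adjusted p = 0.0794), passing without sensitive array 5 (-2.87, adjusted p = 0.0265). Its size is uncertain too, since SLC2A1 was above the limit on only 3 resistant and 3 sensitive arrays. LDHB to LDHA differed by 0.33 and ALDOC to ALDOA by 0.33, with exact p-values of 0.0794 and 0.103. PDK1 to PDK2 differed by -1.25 (exact p = 0.0952), and the remaining 4 pairs had exact p-values from 0.143 to 0.54.

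**Figure D4:**
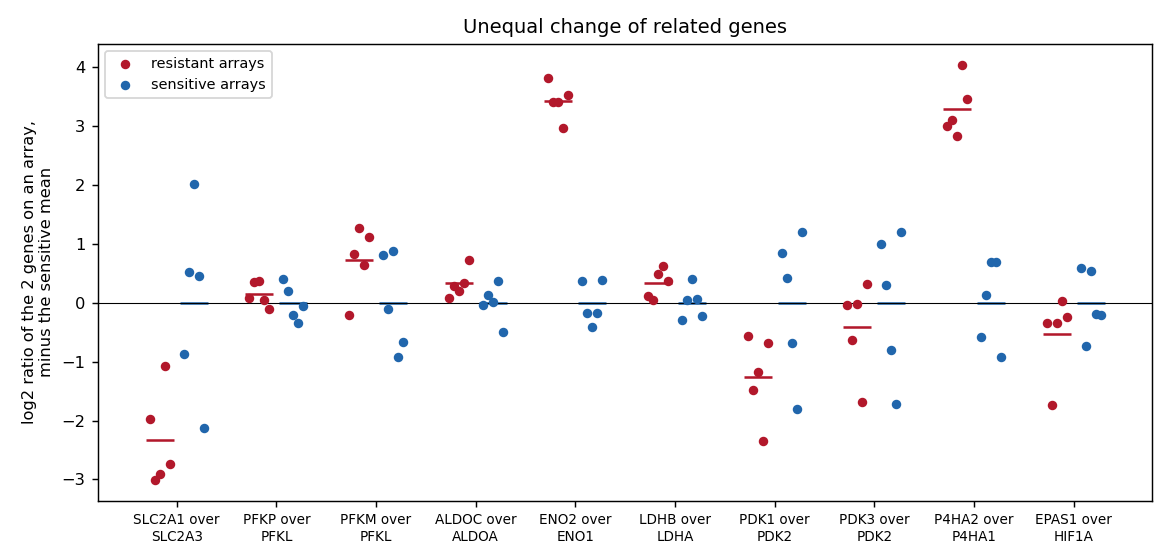
Log2 ratio of 2 related genes on each array, minus the sensitive mean of that ratio, for 10 pairs (red, resistant arrays; blue, sensitive arrays; lines, group means). Resistant arrays lie near 3.43 for ENO2 over ENO1 and 3.29 for P4HA2 over P4HA1, clear of the sensitive arrays, and the groups overlap in the other 8 pairs.

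Within the sensitive group many of these genes shared their highest and their lowest array. Of the 25 probe sets above the limit on all arrays, sensitive array 1 was the highest sensitive array in 15 (60%) and sensitive array 3 the lowest in 17 (68%). Over all 4971 such probe sets those shares were 14.8% and 24.7%. BNIP3, P4HA1, GPI and LDHA ran in the same order over the sensitive arrays, with replicate 1 the highest, then replicates 5, 2, 4 and 3. ENO2, called higher in resistant cells and not among the 25, ran in that order too. Its signals on sensitive arrays 3 and 4 were below the limit, so its lowest ranks are uncertain. The resistant arrays showed less of an order: replicate 4 was the highest in 36% of the 25 and replicate 3 the lowest in 40%, against 19.5% and 25.7% of the 4971. These counts describe 5 samples, with no test. For the 10 brightest members, the median resistant minus sensitive difference was -0.40 without sensitive array 1 and -0.53 without sensitive array 3, with 9 negative in each case. The 25 leave out members that were dim on any array, ENO2, ENO3, P4HA2 and SLC2A3 among them.

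**Figure D5:**
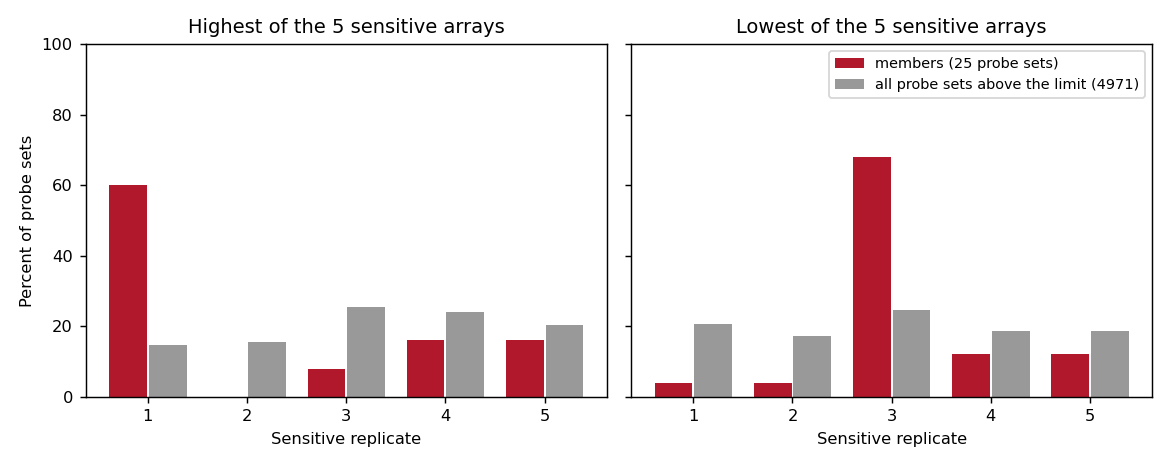
Percent of probe sets in which each sensitive replicate was the highest (left) or the lowest (right) of the 5 sensitive arrays, for the 25 probe sets of these genes above the limit on all arrays (red) and for all 4971 such probe sets (grey). Replicate 1 leads at 60% on the left and replicate 3 at 68% on the right, where all probe sets give 14.8% and 24.7%.

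Other genes of the same pathways were read from 5 lists, chosen with earlier results of these data known, so their counts are not independent support. The lists held 112 genes, of which 84 were measured. By the brightest probe set 1 was called higher and 9 lower, and the median log2 difference was -0.14, where 4.94% and 3.46% of all 8226 genes were called higher and lower and their median was 0.03. Among 31 other genes that low oxygen induces, 5 were called lower and 0 higher (0 higher also at an unadjusted p under 0.05 in limma), with a median of -0.25, against the same shares of 4.94% higher and 3.46% lower over all genes. GBE1, the glycogen branching enzyme, had signals of 4041, 4856, 5645, 6058 and 5781 on resistant arrays 1 to 5, against 48859.5, 34586, 19283, 28814 and 45014 on sensitive arrays 1 to 5. The groups were far apart, and sensitive array 1 was again the highest and array 3 the lowest (log2 difference -2.66, limma adjusted p = 4.03e-05). NDRG1, a stress-induced gene of myelin and epithelia, was 1964 ± 764 in resistant and 8851 ± 3773 in sensitive cells (SD, n = 5 each, log2 difference -2.07, limma adjusted p = 0.00175). CXCR4, the receptor of the chemokine CXCL12, was above the limit on 0 resistant and 5 sensitive arrays and at least 3.71-fold lower, at means of 213 ± 167 in resistant and 2189.7 ± 949 in sensitive cells (SD, n = 5 each, limma adjusted p = 0.00119). CITED2, a transcriptional co-regulator that restrains HIF1A, differed by -1.16 and KDM4B, a histone demethylase, by -0.87 (limma adjusted p = 0.00458 and 0.0383). The KDM4B call was lost without resistant array 1, 2, 3 or 5 or sensitive array 2, 3 or 5, at adjusted p-values of 0.0671 to 0.0903. VEGFA, the angiogenic growth factor, was not called, at 6003.5, 6674, 17265, 3068 and 9427 on resistant arrays and 14874, 8863, 11173, 13324 and 12774 on sensitive arrays, where resistant array 3 was the highest of all. In 18 of these genes above the limit on all arrays, sensitive array 1 was the highest sensitive array in 12 and array 3 the lowest in 9. Over all 5 lists, which hold these 18, array 1 was the highest in 15 of 50 and array 3 the lowest in 17 of 50, where the shares of all probe sets above the limit were 14.8% and 24.7%.

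The remaining lists held few calls. In the pentose phosphate pathway, which branches off at glucose 6-phosphate and makes NADPH, all 5 measured genes had negative differences and PGD, the enzyme that oxidises 6-phosphogluconate, was called lower at 26019 ± 1800 in resistant and 49358 ± 7204 in sensitive cells (SD, n = 5 each, log2 difference -0.91, limma adjusted p = 0.00459). In the list of pyruvate dehydrogenase and citric acid cycle genes 1 of 21 was called, IDH1, a cytosolic isocitrate dehydrogenase that makes NADPH outside the cycle. It was higher, at 14206 ± 1934 in resistant and 6463 ± 1684 in sensitive cells (SD, n = 5 each, log2 difference 1.15, limma adjusted p = 0.00439). Of 21 other genes of glycolysis and of glucose and lactate transport, 2 were called lower: BSG, a chaperone of lactate transporters, at -0.65, and SLC16A7, a monocarboxylate transporter above the limit on 0 resistant arrays and at least 1.31-fold lower (limma adjusted p = 0.0311 and 0.0142). The BSG call was lost without resistant array 1, 2 or 4 or sensitive array 1, 2, 3 or 5, at adjusted p-values of 0.0552 to 0.0763. Of 6 further genes of oxygen sensing, ELOC, the elongin C subunit of the VHL ligase, was called lower at -1.12 (limma adjusted p = 0.00203). NDRG1 and ELOC lie on chromosome 8, where 23.2% of 298 genes were called lower, against 2.73% of 7921 genes elsewhere. Without the list genes of chromosome 8, 1 of 80 genes was called higher and 7 lower.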

How the data were processed

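Total RNA was measured on 10 oligonucleotide arrays, 5 of resistant and 5 of sensitive cells, grouped by the sample titles. The deposited values are MAS5 signals, per the submitters' processing notes: an intensity, on a linear scale, for each probe set of each array. Not given in the sources used here are the version and settings of MAS5. The authors' intensities already had a common level, with 2% trimmed means of 2501.33 to 2501.51.

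Names came from the platform annotation, updated to the gene table of GRCh38.p14. Of the tested ones, 10943 had 1 symbol, 545 several and 1070 none. The 67 control probe sets stayed out of the fit. All arrays were set to 1 common trimmed mean. Values of log2(signal + 114.8), a pseudocount at the 20th percentile of all signals, were fitted in R 4.3.3 with limma 3.58.1, without covariates and with Benjamini-Hochberg adjustment over 12558 probe sets. The fit was tested on simulated data. The negative control limit was 319.7 to 739.8 on resistant and 360.8 to 640.0 on sensitive arrays. For a bound, a dim group's signals under the limit were raised to it before the group means of log2 signals were compared. The number of arrays limits the precision. Ratios and GAPDH controls were tested by exact permutation over the 252 regroupings of 5 against 5 arrays, two-sided, with adjustment within each family. Pairs compared changes only. The pair of HK2 and HK1 was left out.

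The members, lists and tests were chosen with earlier results of these data known. Array values are given for each called member, for other probe sets of a called gene, and for HIF1A, SLC2A1, HK2, LDHA and PDK1, and in addition for SLC2A3, ENO1, GBE1 and VEGFA. Of the lists, called genes are named. Alternatives were the scaling (common median, quantile), the pseudocount, a filter on dim probe sets, a prior with an intensity trend, the replicate number as a block, the mean of a gene's probe sets and leaving out each array. Whether replicate numbers pair the samples is not given in the labels, and the main fit took them as unpaired. Same-numbered arrays' deviations from their group means correlated at 0.01 to 0.12, which cannot settle it.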

Additional observations from a re-analysis of the deposited data

Results flagged for a closer look

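In 92 groups of 5 arrays, 1 per tested probe set and line, the highest or lowest array was tested for standing apart, and 3 stood apart by Dixon's criterion, which chance meets in about 1 group in 20. The HK3 signal of resistant array 4 was 737.8, against 108 to 187 on the other resistant arrays. It did not exceed that array's negative control limit of 739.8. The signal of PFKFB3 probe set 37111_g_at on sensitive array 3 was 1752.1, against 875 to 1018 on the other sensitive arrays. The TPI1 signal of resistant array 4 was 18853.4, against 25685 to 29135 on the other resistant arrays.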

How the results depend on the processing

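The calls of ENO2, ENO3, BNIP3 and the PGK1 probe set 31488_s_at held under all 17 alternatives and that of P4HA2 under all 16 it could be fitted in, since the filter on dim probe sets, above the limit on at least 5 arrays, removed it. P4HA1 passed in 11 of 17, PDK1 in 7, GPI in 6 and SLC2A3, not called as reported, in 5. The number of member probe sets called lower, 5 as reported, was 3 with a pseudocount at the 5th percentile, 8 at the 40th, 9 under the filter and 10 with a prior that follows intensity. By genes, 4 as reported, it was 2, 7, 8 and 9 in the same order. Leaving out 1 array gave 2 to 5 probe sets and 1 to 4 genes. List genes called higher, 1 as reported, were 1 to 2 when an array was left out, and the ratio of SLC2A1 to SLC2A3 differed by -2.87 to -1.83. Counts of member genes called higher were 3 or 4 under all alternatives run, though not always of the same genes. Under the filter, which removed P4HA2, SLC2A3 was called (limma adjusted p = 0.0348). Over all probe sets, 555 were called higher and 376 lower as reported, 438 and 424 when scaled to a common median, which moved the median of all differences from 0.03 to -0.07, and 525 and 428 after quantile normalisation. They were 660 and 491 with the trended prior and 428 to 537 and 263 to 345 with 1 array left out. The sign of HK2, not called in any alternative, turned to -0.0299 under the common median and ranged from -0.14 to 0.23 with 1 array left out. Its values were -0.0597, -0.0282 and -0.14 without resistant array 2, resistant array 3 and sensitive array 3. The cause of these changes was not tested. With the replicate block 491 were called higher and 303 lower, 3 member genes higher and 3 lower, and GPI lost its call (limma adjusted p = 0.0648). Of the resistant arrays, only replicate 3 correlated best with the sensitive array of its own number. Signals near the limit, as for SLC2A1, HK3, PFKM, PDK2, EPAS1 and P4HA2 in sensitive cells, carry little precision on size.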
